A study of Mus musculus with 68 samples.

Results

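The first pharyngeal arch (PA1) of wildtype mouse embryos was compared between embryonic day 9.0 (E9.0) and embryonic day 9.5 (E9.5), across all genes. The comparison used every wildtype PA1 library of these 2 stages, which was 5 libraries at E9.0 and 5 at E9.5, or 10 of the 68 libraries in the series. Per the labels, all embryos were of the strain CBA/Ca/J x C57BL/10 and these 10 had the wildtype genotype. Arches were dissected by hand, and each replicate is tissue of a single embryo, so the whole arch with all its cell types was measured. For 2 further comparisons, 9 PA1 libraries labelled Hoxa2-/- (4 of stage E9.0, 5 of stage E9.5), and 8 libraries of wildtype second arch (PA2, 4 at each stage) were used. No treatment is given in the labels. Values are read counts relative to sequencing depth, on a scale close to CPM and called so here (the deposited values of the 10 libraries sum to 998696 to 1036225), of polyadenylated RNA amplified with a low-input kit.

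PA1 is the swelling beside the embryonic throat from which the upper and lower jaws form. Its mesenchyme comes largely from cranial neural crest, cells that leave the edge of the neural tube, migrate into the arch with genes such as Sox10 and Erbb3 active, and switch to a skeletal and connective tissue program there. Within the arch, endothelin signals from the epithelium act through the receptor Ednra and turn on Dlx and Hand2 genes toward its far (distal) end, while homeobox genes such as Barx1 and Lhx8 mark fields of the later jaw and teeth.

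The 10 libraries held from 12539124 to 20619153 recovered reads, so that 3 reads were worth 0.147 to 0.240 CPM. The dissection label was checked against markers: Prrx1 averaged 97.5 CPM at E9.0 and 121 CPM at E9.5, and the arch factors Dlx2 and Dlx1 97.2 and 35.6 CPM at E9.0, while 6 Hox genes of the second arch and behind summed to 0.491 to 2.00 CPM per library. Proximal Dlx genes were also tested in PA2, so the Hox sum is what bears on PA1 against PA2. Several libraries stood apart. E9.5 replicates 1 and 3 lay at one end of the first principal component (scores of 33.3 and 35.6, against -20.1 to -9.06 at E9.0), and short transcripts were high in them: the median deviation of genes under 1000 bases minus that of genes over 8000 bases was 0.29 and 0.46 on the log2 scale, against -0.22 to -0.06 at E9.0. E9.5 replicate 2 scored -11.1, among the E9.0 libraries. Yolk sac transcripts summed to 81.2 and 67.3 CPM in E9.0 replicates 3 and 4 and to 2.49 to 8.02 in the other 8, red cell transcripts to 7974 CPM in E9.0 replicate 2 against 1835 to 3984, and heart muscle transcripts to 258 CPM in E9.5 replicate 4 against 10.3 to 97.0. Xist was over Ddx3y in 1 of 5 libraries at E9.0 (replicate 3) and in 4 of 5 at E9.5 (all but replicate 2), so stage and sex were partly confounded. Each main count is given below with and without these libraries.

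Of 15963 genes tested, 625 passed an adjusted p of 0.05 between E9.0 and E9.5, which is 3.92% of them. Among these, 316 were higher at E9.5 (1.98%) and 309 were lower (1.94%). Most changes were small: the median size was 0.53 on the log2 scale, and 23 genes rose and 33 fell by more than 1, that is by over a doubling or halving. For 504 of the 625, the 5 libraries of one stage did not overlap the 5 of the other, against 7.21% of all genes tested that did not overlap (4.4% with E9.5 higher and 2.81% with E9.5 lower). The count of calls depended on the libraries, with 2145 genes without E9.5 replicate 2, of which 622 were among the 625, and 143 without E9.0 replicate 5. It was 157, 210, 165 and 244 without E9.0 replicates 1, 2, 3 and 4, and 148, 422, 276 and 518 without E9.5 replicates 1, 3, 4 and 5. Without E9.5 replicates 1 and 3 together it was 230, without E9.0 replicates 3 and 4 together 64, and with a term for the Xist side 31. The 12 genes of the largest rise and the 12 of the largest fall were taken from called genes whose groups did not overlap. Of these 24, 22 passed the test with each of the 10 libraries left out in turn and 11 passed with the Xist-side term, namely Barx1, Dlx4os, Hand2os1, Trpm1, Fbln5, Nbl1, Cdh19, Ccl6, Mamdc2, Slc27a6 and Enpp2, while all 24 kept their direction. Within a side, the stages stood at 1 library against 4 or 4 against 1, too few to test. Without E9.0 replicates 3 and 4 together, the genes of these 24 that did not pass included Sox10, Gpr50, Hand2, Slc16a7, Vapb and Pde9a. Ccl6, Camk2b, Upp1, Cyp26c1 and Enpp2 did not pass there either (adjusted p = 0.0503 to 0.118 over the named genes). In bulk tissue, fewer cells of a type and less RNA per cell cannot be told apart.

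**Figure D1:**
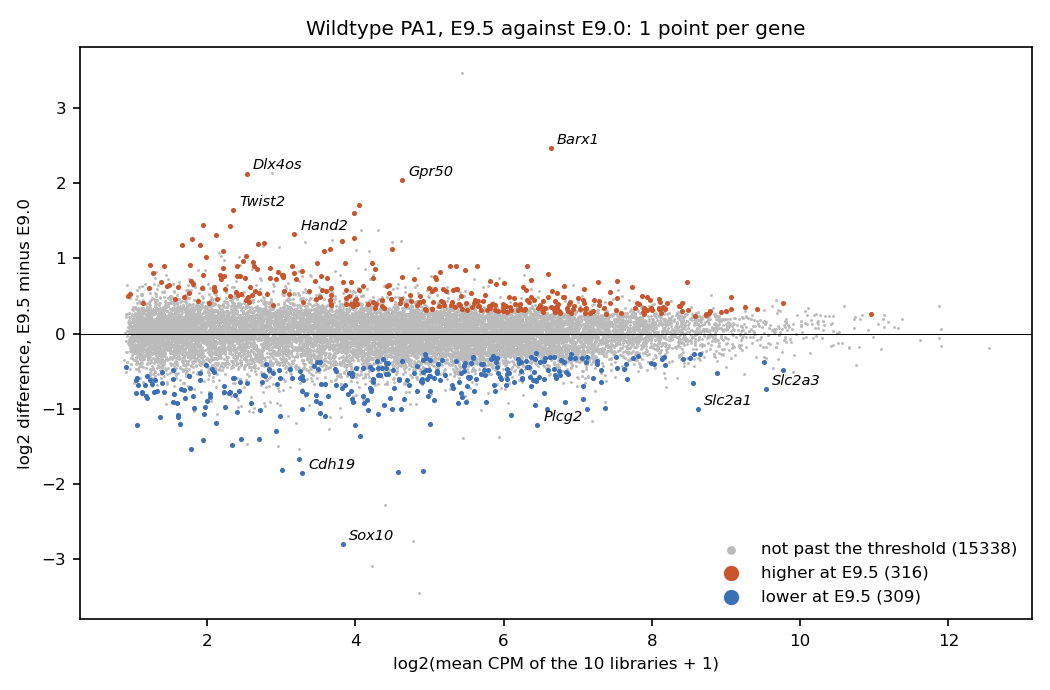
Difference between stages for each of 15963 genes (y axis, log2 of E9.5 over E9.0 on CPM + 1) against mean level (x axis, log2 of mean CPM + 1). The 316 higher and 309 lower genes are coloured, and names mark 10 genes, among them Barx1 at a log2 difference of 2.46 and Sox10 at -2.80.

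The largest rise among these 24 was that of Barx1, a homeobox factor of the jaw mesenchyme and tooth field (chr13:48662998-48666507, plus strand). Its level was 31.5, 51.7, 14, 28.4 and 25.7 CPM in E9.0 replicates 1 to 5, and 219, 175, 81.8, 167 and 190 CPM in E9.5 replicates 1 to 5. Every E9.5 library lay above every E9.0 library, and replicate 3 was the lowest at both stages. The mean went from 30.3 ± 13.7 to 167 ± 51.4 CPM (SD, n = 5 each), a ratio of 5.50, with a log2 difference of 2.46 (SE 0.31, adjusted p = 0.00366). It was 210 CPM at E10.0 and 116 CPM at E10.5 in wildtype PA1.

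Hand2, a basic helix-loop-helix factor of the distal arch, and the RNA Hand2os1 on the opposite strand rose together. Hand2 was at 4.86, 4.55, 2.56, 4.14 and 4.22 CPM at E9.0 and at 15.0, 9.98, 6.63, 14 and 14.1 CPM at E9.5. Its groups did not overlap, and the log2 difference was 1.32 (SE 0.21, adjusted p = 0.00835). Hand2os1 went from 6.70 ± 1.33 to 22.9 ± 7.07 CPM (SD, n = 5; log2 difference 1.6, SE 0.20, adjusted p = 0.00366). The annotated exons of the pair share 461 bases and the strandedness of counting is not given in the sources used here, so reads of the pair may not be separated. A second pair of this kind was Dlx4, a homeobox gene of the distal arch, and Dlx4os, whose exons share 79 bases. Dlx4os was at 1.93, 1.14, 0.359, 0.828 and 1.13 CPM at E9.0 and at 12.1, 7.59, 3.62, 6.17 and 13 CPM at E9.5, with a log2 difference of 2.12 (SE 0.29, adjusted p = 0.00406). Dlx4 itself rose from 0.966 ± 0.296 to 4.70 ± 2.1 CPM (SD, n = 5; log2 difference 1.44, SE 0.26, adjusted p = 0.0169).

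The start regions of these rising genes are shown because they are the DNA beside which the largest changes were measured. Of 32 genes named for the size of their change, 21 had a start window in the set of RefSeq windows used here (GRCm38.p6, the assembly also called mm10). A window runs from 250 bases before to 50 after the transcript start. Capitals mark CATCTG on either strand, an E-box read by Twist and Hand factors, and TAATTA, a homeodomain core. CATCTG is in 17.2% of the 32851 windows of the table and in 8 of the 26 windows of the named genes, and TAATTA in 5.29% and in 2 of 26. These 26 windows are of genes that rose and genes that fell, and some genes have more than 1 window. Of the 8, 2 are overlapping windows of L1cam that hold the same CATCTG, and the shares were not compared by a test. The Hand2 window (chr8:57320733-57321032, plus strand) holds both, and the start of Hand2os1 lies in it, 124 bases upstream of that of Hand2. The Dlx4os window (chr11:95144803-95145102, plus strand) holds 1 CATCTG, and that of Barx1 (chr13:48662786-48663085, plus strand) holds neither and is 84.7% G and C. A match is a description of letters and was not tested as a binding site.
Hand2: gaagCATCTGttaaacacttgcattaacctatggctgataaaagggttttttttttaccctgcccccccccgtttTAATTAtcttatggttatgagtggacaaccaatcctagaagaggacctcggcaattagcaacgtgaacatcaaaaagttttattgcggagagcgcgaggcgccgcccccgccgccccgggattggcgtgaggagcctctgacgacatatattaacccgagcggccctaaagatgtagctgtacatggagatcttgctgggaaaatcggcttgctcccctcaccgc
Dlx4os: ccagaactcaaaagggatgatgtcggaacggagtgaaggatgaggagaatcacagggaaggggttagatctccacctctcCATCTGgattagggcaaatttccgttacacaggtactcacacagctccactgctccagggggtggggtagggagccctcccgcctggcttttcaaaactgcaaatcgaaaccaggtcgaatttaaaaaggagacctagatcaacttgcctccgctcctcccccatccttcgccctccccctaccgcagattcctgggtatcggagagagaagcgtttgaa
Barx1: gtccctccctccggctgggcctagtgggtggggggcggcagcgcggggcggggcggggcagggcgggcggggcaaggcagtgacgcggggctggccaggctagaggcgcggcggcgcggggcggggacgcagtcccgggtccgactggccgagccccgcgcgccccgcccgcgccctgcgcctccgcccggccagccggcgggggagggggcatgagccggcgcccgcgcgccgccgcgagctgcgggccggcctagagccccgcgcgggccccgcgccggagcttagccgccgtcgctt

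Twist2, a helix-loop-helix factor of mesenchyme, was at 1.36, 1.73, 0.871, 1.59 and 1.47 CPM at E9.0 and at 7.07, 4.45, 4.03, 7.21 and 11.3 CPM at E9.5. The groups were far apart, and the log2 difference was 1.63 (SE 0.22, adjusted p = 0.00376). The orphan receptor gene Gpr50, on the X chromosome, was at 6.29 to 8.71 CPM at E9.0 and at 44.5, 28.2, 13.7, 31.8 and 80.7 CPM at E9.5. Its spread at E9.5 was wide, with replicate 3 lowest and replicate 5 highest, and the log2 difference was 2.04 (SE 0.34, adjusted p = 0.0116). The other members of the top 12 were Trpm1, an ion channel gene (1.65 to 6.22 CPM), Fbln5, an elastic fibre protein gene (8.43 to 21.3 CPM), Slc16a7, a monocarboxylate carrier gene (3.03 to 8.61 CPM), Vapb (13.5 to 29.4 CPM), Nbl1, which encodes a secreted BMP antagonist (6.90 to 16.3 CPM), and Pde9a, a cyclic GMP phosphodiesterase gene (1.95 to 5.32 CPM). Their log2 differences ran from 1.10 for Pde9a to 1.43 for Trpm1. The largest rises in CPM were those of abundant genes and were small in ratio. H3f3b, which encodes histone H3.3, went from 1812 to 2162 CPM, Stmn1, a microtubule regulator gene, from 603 to 762, Mdk, a growth factor gene, from 444 to 628, and Hmgb2, a chromatin protein gene, from 536 to 687. Of these 4, Mdk was called with each library left out, Hmgb2 in 6 of 10 such fits, Stmn1 in 2 and H3f3b in 1.

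**Figure D2:**
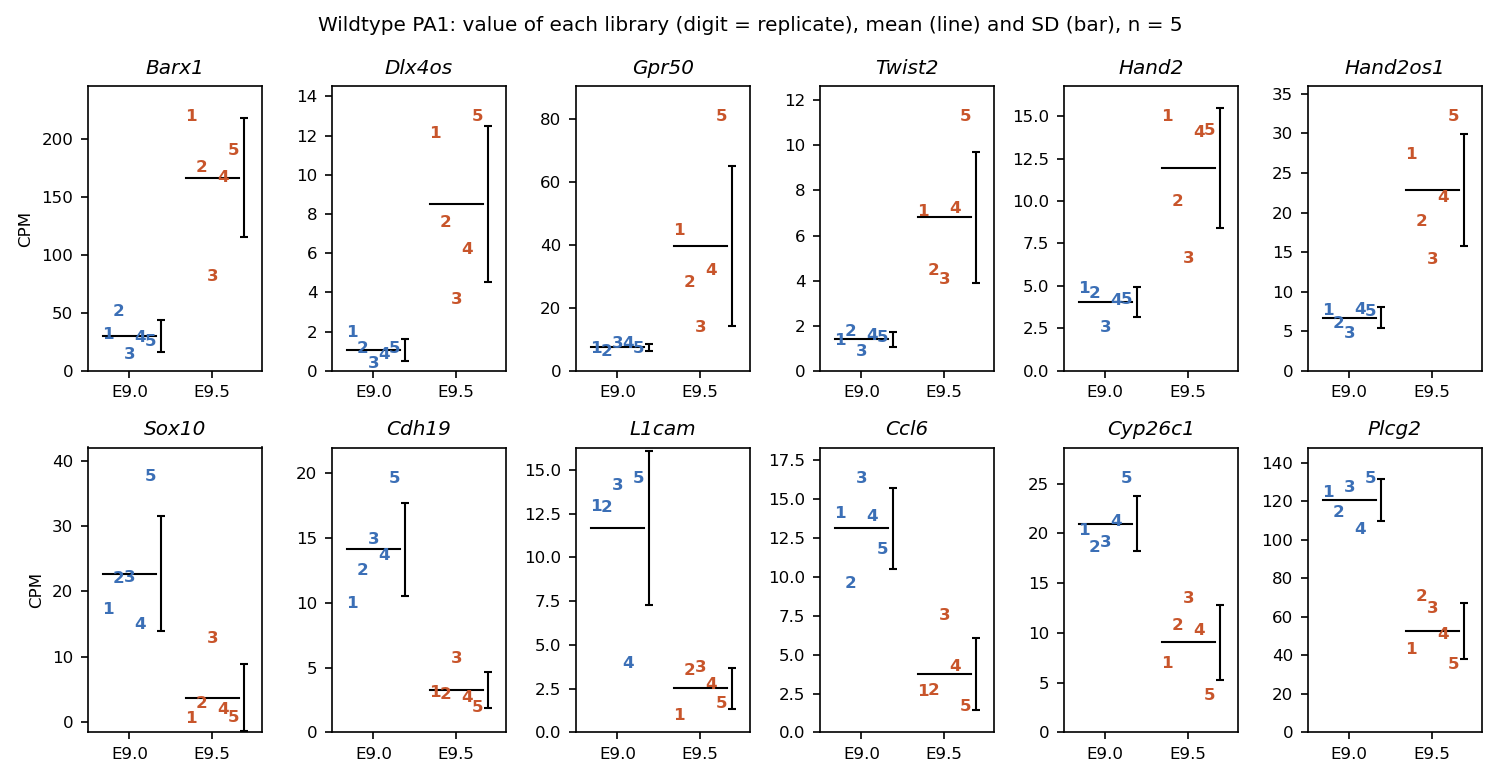
Level in CPM (y axis, 0 included) of 12 genes in each wildtype PA1 library, with the digit giving the replicate, the line the mean and the bar 1 SD of 5 libraries. In all 12 the stages do not overlap, and E9.5 replicate 3 is the E9.5 library nearest to the E9.0 values in Barx1, Gpr50 and Sox10.

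The largest fall among the 24 was that of Sox10, the transcription factor of migrating neural crest and of glia (chr15:79154908-79165240, minus strand). It was at 17.1, 22.0, 22.1, 14.8 and 37.6 CPM at E9.0 and at 0.520, 2.85, 12.7, 1.84 and 0.582 CPM at E9.5. The groups did not overlap, but E9.5 replicate 3 came close to the lowest E9.0 library. The mean went from 22.7 ± 8.86 to 3.70 ± 5.13 CPM (SD, n = 5), with a log2 difference of -2.80 (SE 0.50, adjusted p = 0.0155). Without E9.5 replicate 3 the log2 difference was -3.32. Sox10 was at 0.0721 CPM at E10.0, under the 3-read floor.

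Other genes of the crest and its glia fell with Sox10. Cdh19, a cadherin gene of crest and glial precursors, went from 14.1 ± 3.58 to 3.27 ± 1.41 CPM (SD, n = 5; log2 difference -1.85, SE 0.21, adjusted p = 0.00333). All 5 tested glia and late crest genes (among them Sox10, Cdh19, Erbb3 and Fabp7) passed the test and were lower, against 1.94% of all genes tested. The neuregulin receptor gene Erbb3 went from 31.5 to 17.0 CPM, and Fabp7, a fatty acid binding protein gene, from 5.15 to 2.70 CPM, with groups that touched and a call in 2 of 10 fits without a library. Of 13 migrating neural crest genes tested, which include Sox10 and Erbb3, 7 fell, none rose and 6 did not pass, with a median of -0.60 against 0.01 over all genes tested. Also among the 7 were Ets1, a transcription factor gene (116 to 68.3 CPM), Kit, the receptor gene of stem cell factor (73.9 to 49.1), Mef2a (49.7 to 37.9) and the cadherin gene Cdh11 (330 to 248). In fits without a library, Erbb3 and Cdh11 were called in all 10, Ets1 in 6, Kit in 4 and Mef2a in 2, and without E9.5 replicates 1 and 3 Kit and Mef2a did not pass (adjusted p = 0.0938 and 0.183). Sox10, Ets1, Cdh11, Kit, Fabp7 and Mef2a did not pass without E9.0 replicates 3 and 4 together (adjusted p = 0.0793 to 0.193). Erbb3 and Cdh19 passed there. The summed level of this list was 748 to 838 CPM at E9.0 and 461 to 611 at E9.5, without overlap. With the Xist-side term no gene of this list passed (adjusted p = 0.133 for Sox10), and of the glia list only Cdh19 did (adjusted p = 0.0344). Zeb2, a crest factor gene chosen after its values were seen, went from 29.1 ± 2.95 to 14.2 ± 3.53 CPM (SD, n = 5; log2 difference -1.01, adjusted p = 0.00543).

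The remaining large falls were of several kinds. L1cam, which encodes an adhesion molecule of neurons and crest, was at 12.9, 12.8, 14.1, 3.93 and 14.5 CPM at E9.0 and at 0.988 to 3.69 CPM at E9.5. E9.0 replicate 4 lay near the E9.5 values, and the log2 difference was -1.81 (SE 0.33, adjusted p = 0.0159). Plcg2, a phospholipase gene, was the most abundant of the group, at 125, 114, 127, 105.3 and 132 CPM at E9.0 and 43.0, 70.4, 64.6, 51.0 and 35.3 CPM at E9.5 (log2 difference -1.22, SE 0.16, adjusted p = 0.00376). It was at 5.45 CPM at E10.5. Cyp26c1, which encodes an enzyme that breaks down retinoic acid, went from 21.0 ± 2.77 to 9.05 ± 3.75 CPM (SD, n = 5; log2 difference -1.22, adjusted p = 0.0246) and was at 0.668 CPM at E10.5. Enpp2, the gene of the lysophosphatidic acid-making enzyme autotaxin, fell from 43.5 to 18.9 CPM, while its level at E10.5 was 112 CPM. The chemokine gene Ccl6 (13.1 to 3.75 CPM), Mamdc2 (6.41 to 1.73), the fatty acid carrier gene Slc27a6 (8.35 to 2.62), the kinase gene Camk2b (6.80 to 2.20) and the uridine phosphorylase gene Upp1 (9.70 to 3.58) were further members of the 12. Camk2b and Cyp26c1 lost their calls in 5 of the 10 fits without a library: both without E9.0 replicates 1, 3 or 5 or E9.5 replicate 1, Camk2b also without E9.0 replicate 2 (highest adjusted p of 0.0665) and Cyp26c1 also without E9.0 replicate 4 (highest adjusted p of 0.0666).

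Of 13 genes of the endothelin signal and the distal arch tested, 3 rose, 2 fell and 8 did not pass, with a median of 0.06; over all genes tested 1.98% rose and 1.94% fell. The 3 that rose are transcription factor genes: Hand2, Dlx4 and Dlx3, which was at 40.5, 34.3, 22.0, 32.5 and 37.2 CPM at E9.0 and at 74.1, 69.2, 33.5, 79.8 and 65.4 CPM at E9.5. The Dlx3 groups overlapped through E9.5 replicate 3, and the call (adjusted p = 0.0437) held in only 2 of 10 fits, those without E9.5 replicate 2 or 3. The 2 that fell are the receptor gene Ednra and Mef2c, a factor gene that acts below the receptor. Ednra was at 50.7, 49.7, 53.8, 52.2 and 44.1 CPM at E9.0 and at 28.7, 29.3, 39.2, 33.1 and 29.6 CPM at E9.5 (log2 difference -0.64, SE 0.10, adjusted p = 0.00689), and at 86.6 CPM at E10.5. Mef2c went from 90.7 ± 10.0 to 44.7 ± 16.5 CPM (SD, n = 5; log2 difference -1.08, SE 0.21, adjusted p = 0.0219), a call kept in 6 of 10 fits and lost with the length and GC correction (adjusted p = 0.0538). Without E9.0 replicates 3 and 4 together, none of Hand2, Dlx4, Dlx3, Ednra and Mef2c passed (adjusted p = 0.0636 to 0.184). The ligand gene Edn1 was at 20.6 ± 1.93 and 18.6 ± 3.39 CPM, and the factor genes Dlx5 at 55 and 63.5 CPM and Dlx6 at 6.45 and 9.45 CPM did not pass.

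Homeobox genes of the jaw fields were mostly higher at E9.5. Of 9 tested, 3 rose, Barx1 and Lhx8 among them, and 6 did not pass, against 1.98% of all genes tested that rose. Of the 9 differences, 8 were above 0, with a median of 0.41 against 0.01 over all genes tested. Lhx8, a factor gene of the upper jaw and tooth field, was at 4.90 to 6.89 CPM at E9.0 and at 12.3, 12.9, 9.70, 9.14 and 35.0 CPM at E9.5 (adjusted p = 0.0497), and at 83.5 CPM at E10.5. Its groups did not overlap, with E9.5 replicate 5 highest, and the call held in 2 of 10 fits without a library and was lost with the length and GC correction (adjusted p = 0.0705). Msx1, a mesenchyme homeobox gene, was at 81.2 to 127 CPM and 81.7 to 233 CPM with overlap (adjusted p = 0.104). Of 11 other arch mesenchyme homeobox genes tested, Eya2 (34.7 to 22.2 CPM) and Alx1, a factor gene of the frontonasal region (11.9 to 5.56 CPM), fell and none rose, against 1.94% of all genes tested that fell. Both calls held in 4 of 10 fits without a library, and the groups of Alx1 overlapped.

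Among 15 ectomesenchyme factors tested, 3 rose and 1 fell, against 3.92% of all genes tested that passed. Tfap2c rose from 5.18 ± 0.713 to 10.6 ± 1.90 CPM without overlap (SD, n = 5; adjusted p = 0.00674) and Foxf2 from 4.54 to 9.05 CPM with overlap (adjusted p = 0.0456, held in 2 of 10 fits without a library), beside Twist2. The gene of the platelet-derived growth factor receptor Pdgfra fell from 127 ± 9.67 to 87.7 ± 20.53 CPM (adjusted p = 0.0428, held in 2 of 10 fits). Its ligand gene Pdgfc, chosen after its values were seen, rose from 27.5 ± 4.15 to 52.8 ± 13.7 CPM (SD, n = 5; log2 difference 0.89, SE 0.16, adjusted p = 0.0168). Foxf1, a target of Hedgehog signals, was at 6.98 ± 3.48 and 19.1 ± 10.7 CPM and did not pass (adjusted p = 0.0870). All 8 skeletal fate genes tested were without a call.

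In the signalling lists, calls were 0 to 3 per list. The share called was 25% for retinoic acid, 11.8% for BMP, 9.09% for Hedgehog and 8% for Wnt genes, against 3.92% of all genes tested. None of 14 FGF genes and none of 13 Notch genes passed. In the retinoic acid pathway, the binding protein gene Crabp2 rose from 139 ± 6.02 to 227 ± 32 CPM (SD, n = 5; log2 difference 0.69, SE 0.09, adjusted p = 0.00376), while the receptor gene Rarb fell from 8.51 to 5.28 CPM and Cyp26c1 fell as above, among 12 tested. In the Wnt list of 25 tested, the ligand gene Wnt3 rose from 1.63 to 3.23 CPM and the receptor gene Fzd7 was at 122, 117, 111, 95.6 and 113 CPM at E9.0 and at 40.4, 76.8, 57.1, 55.6 and 61.7 CPM at E9.5 (log2 difference -0.95, SE 0.14, adjusted p = 0.00543). Of 17 BMP genes, the pseudoreceptor gene Bambi rose (87.1 to 135 CPM) and the antagonist gene Fst fell (5.82 to 2.93 CPM), and of 11 Hedgehog genes the co-receptor gene Boc fell (21.7 to 14.1 CPM). Crabp2 and Fzd7 were called with each library left out, and Rarb in 8, Wnt3 in 5, Bambi in 3, Fst in 2 and Boc in 1 of the 10 fits.

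Genes of glucose uptake and glycolysis that passed were all lower at E9.5. Of 27 entries tested in the glycolysis and hypoxia list (26 genes), 7 fell, none rose and 20 did not pass, against 1.94% of all genes tested that fell. The median of the list was -0.16, against 0.01 over all genes tested. The glucose carrier gene Slc2a1 was at 516, 347, 527, 824 and 431 CPM at E9.0 and at 236, 294, 263, 262 and 219 CPM at E9.5 (log2 difference -1.0, SE 0.18, adjusted p = 0.0161). Slc2a3, a second carrier gene, was at 942, 654, 891, 1373 and 811 CPM and then at 513, 608, 555, 567 and 490 CPM (log2 difference -0.73, SE 0.15, adjusted p = 0.0280). E9.0 replicate 4 was the highest library for both, and neither overlapped between the stages. The lactate carrier gene Slc16a3 (244 to 162 CPM), the mitophagy gene Bnip3 (90.5 to 60.1), the kinase gene Pdk1 (226 to 172) and the phosphofructokinase genes Pfkl (827 to 635) and Pfkp (33.5 to 26.7) were the other 5. Ldha, the lactate dehydrogenase gene, was at 6357 ± 211 and 5602 ± 966 CPM (SD, n = 5) and did not pass. In fits without a library, Slc2a1 and Slc16a3 were called in all 10, Bnip3 in 8, Slc2a3 in 5, Pdk1 in 3, Pfkp in 2 and Pfkl in 1. With the Xist-side term none of these 7 genes passed (adjusted p = 0.1201 to 0.4109). Without E9.0 replicates 3 and 4 together, Slc2a3, Bnip3, Pdk1 and Pfkp did not pass (adjusted p = 0.08756, 0.1296, 0.1572 and 0.1888). Slc2a1, Slc16a3 and Pfkl passed there. After the length and GC correction Slc2a3, Pdk1, Pfkl and Pfkp did not pass (adjusted p = 0.0629, 0.0774, 0.0640 and 0.237). Without E9.5 replicates 1 and 3, Slc2a1, Slc2a3, Pdk1 and Pfkl did not pass (adjusted p = 0.0642, 0.102, 0.0509 and 0.113), Slc16a3, Bnip3 and Pfkp did, and Ldha passed (adjusted p = 0.0380).

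Ribosomal protein genes and subunits of oxidative phosphorylation were slightly higher at E9.5, together with the balance of short over long transcripts. All 75 cytosolic ribosomal protein genes had differences above 0, with a median of 0.24, of which 9 passed. Of 57 oxidative phosphorylation subunit genes, 56 were above 0, with a median of 0.25, and 7 passed, against 1.98% of all genes tested that rose. The summed level of the ribosomal list was 16661 to 17610 CPM at E9.0, and 22858, 17637, 22607, 20685 and 18197 CPM in E9.5 replicates 1 to 5. The 3 highest sums were those of replicates 1, 3 and 4, which also had the highest balance of short over long transcripts. Across genes, the difference between the stages fell with transcript length (Spearman's rho -0.42 over 15945 genes, which are not independent replicates), with medians of 0.17 for genes under 1000 bases and -0.11 for genes over 8000. After a correction for length and GC content the medians of the 2 lists were 0.14 and 0.17, with 7 and 5 called. Without E9.5 replicates 1 and 3 no gene of either list passed, and without E9.5 replicate 2, 50 and 41 passed. In PA1 labelled Hoxa2-/- the medians were -0.11 and -0.01. The part of length balance in these differences was not tested beyond this.

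**Figure D3:**
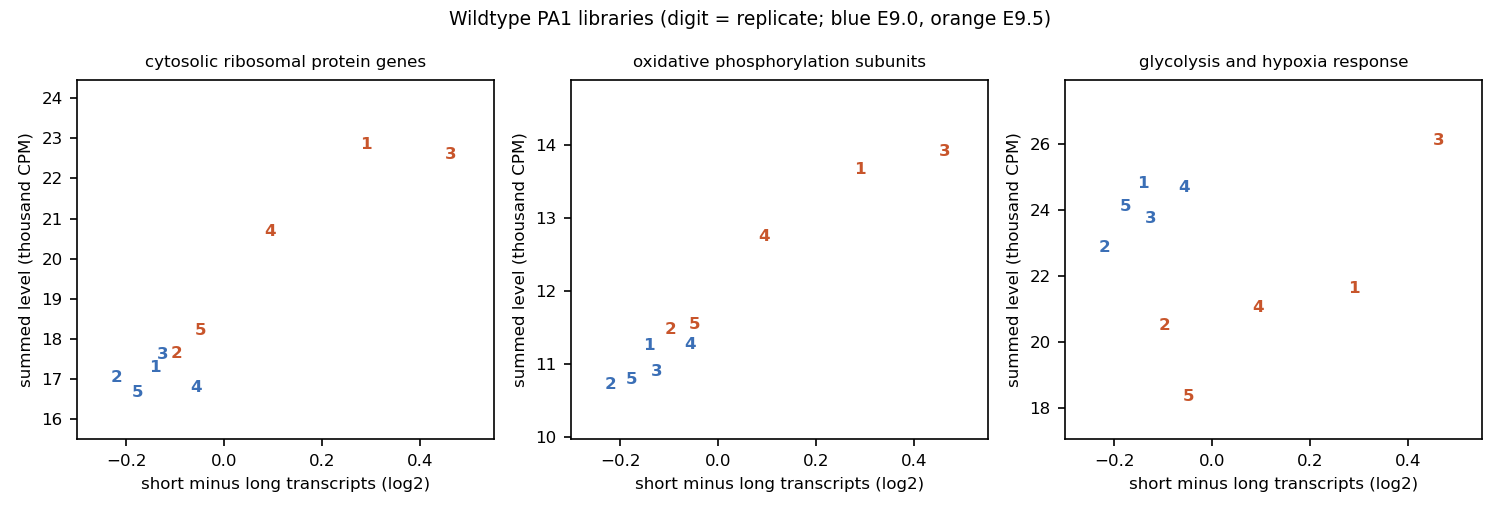
Summed level of 3 gene lists (y axes, in units of 1000 CPM, not from 0) against the balance of short over long transcripts (x axes, log2) in the 10 wildtype PA1 libraries, with digits giving replicates and colours stages. Ribosomal and oxidative phosphorylation sums are highest in E9.5 replicates 1 and 3, and the glycolysis sum of E9.5 replicate 3 is the highest of all 10.

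Genes of growth and developmental timing held scattered calls. Over all genes tested, 1.98% rose and 1.94% fell. The share called was 22.7% of imprinted, 18.2% of timing, 16.7% of cell cycle control and 14.3% of early embryo genes. Of 22 imprinted genes tested, Cdkn1c, a cell cycle inhibitor gene (84.1 to 124 CPM), H19 (192 to 272), Nnat (223 to 282) and Gnas (7.38 to 13.8) rose, and Peg3 fell from 1012 to 735 CPM. Of 12 cell cycle control genes tested, 2 rose, Cdkn1c and the inhibitor gene Cdkn1a, and none fell. Cdkn1a went from 9.0 ± 2.53 to 18.1 ± 4.49 CPM (SD, n = 5, adjusted p = 0.0272). None of 32 cell cycle and replication genes passed, and their median was -0.01. Without E9.5 replicate 2, 4 of the 32 rose and 2 fell, in a fit where 2145 of all genes tested passed. In the list of 11 Lin28 and let-7 timing genes, Hmga2, a chromatin protein gene, rose from 107 to 163 CPM (adjusted p = 0.0188) and Arid3b fell from 173 to 131 CPM. Lin28a, an RNA-binding protein gene of early embryos, was at 180 ± 21.9 and 159 ± 22.8 CPM and did not pass, and was at 6.36 CPM at E10.5. Of 7 early embryo genes, the DNA methyltransferase gene Dnmt3b fell from 108 to 86.7 CPM. Prtg, an early neural and mesoderm receptor gene, was at 487, 471, 464, 390 and 469 CPM and then at 282, 353, 246, 321 and 254 CPM (log2 difference -0.66, SE 0.10, adjusted p = 0.00817). Nr6a1, a nuclear receptor gene chosen after its values were seen, fell from 185 ± 20.4 to 92.2 ± 12.6 CPM (SD, n = 5; log2 difference -1.0, SE 0.11, adjusted p = 0.00298) and was at 8.73 CPM at E10.5. In fits without a library, Prtg and Nr6a1 were called in all 10, Hmga2 in 8, Cdkn1c in 7, Cdkn1a and Nnat in 4, Gnas in 3, H19 and Peg3 in 2 and Arid3b and Dnmt3b in 1.

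Of 27 matrix genes tested, 25 had differences below 0 with a median of -0.32. This median was -0.16 without E9.5 replicates 1 and 3 and -0.21 after the length and GC correction. Against 3.92% of all genes tested, 1 of the 27 passed, Hapln1, which encodes a hyaluronan link protein: it fell from 147 ± 20.4 to 78.7 ± 17.8 CPM (SD, n = 5; adjusted p = 0.00817). Without E9.5 replicate 2, 7 of the list fell, and in PA1 labelled Hoxa2-/- the median was 0.14. Has2, which encodes a hyaluronan synthase and was chosen after its values were seen, was at 122, 116, 135, 144 and 118 CPM at E9.0 and at 56.9, 68.8, 75.9, 65.3 and 50.02 CPM at E9.5 (log2 difference -1.0, SE 0.11, adjusted p = 0.00298).

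Apart from the glia list, lists of markers of other cell types held 0 to 2 calls each. The share called was 25% for neural tube, 18.2% for PA1 ectomesenchyme, 14.3% for endothelium, 14.3% for epithelium and 12.5% for ganglion neurons. It was 0% for red cells, heart muscle, yolk sac and macrophages, against 3.92% of all genes tested. Of 4 neural tube genes and 8 cranial ganglion neuron genes tested, 1 each passed and was lower, Fabp7 and Eya2, which other lists hold too. The summed neural tube level was 45.7 to 51.5 CPM at E9.0 and 24.8 to 42.2 CPM at E9.5, without overlap, and the ganglion sum 107 to 133 and 86.3 to 116 CPM, with overlap. No gene of red cells (15 tested), heart muscle (10), yolk sac (1) or macrophages (1) passed. Of 14 endothelial genes, the receptor genes Tek (73.5 to 42.3 CPM) and Kdr (100 to 65.4 CPM) fell, and the summed level of the list was 457 to 538 CPM at E9.0 and 348 to 457 CPM at E9.5. Of 14 epithelial genes, Perp rose (23.9 to 41.3 CPM) and the cadherin gene Cdh1 fell (124 to 88.7 CPM). In fits without a library, Perp was called in 5 of 10, Kdr and Cdh1 in 3 and Tek in 2. None of these 4 passed without E9.5 replicates 1 and 3 (adjusted p = 0.0974 to 0.141), and Tek did not after the length and GC correction (adjusted p = 0.0629). The part of these cells in the changes of other lists, the crest and glia lists among them, was not tested. The heat shock gene Hspb1, from a list of 13 tested stress genes without another call, went from 1.02 ± 0.474 to 3.94 ± 1.74 CPM (SD, n = 5; adjusted p = 0.0185).

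**Figure D4:**
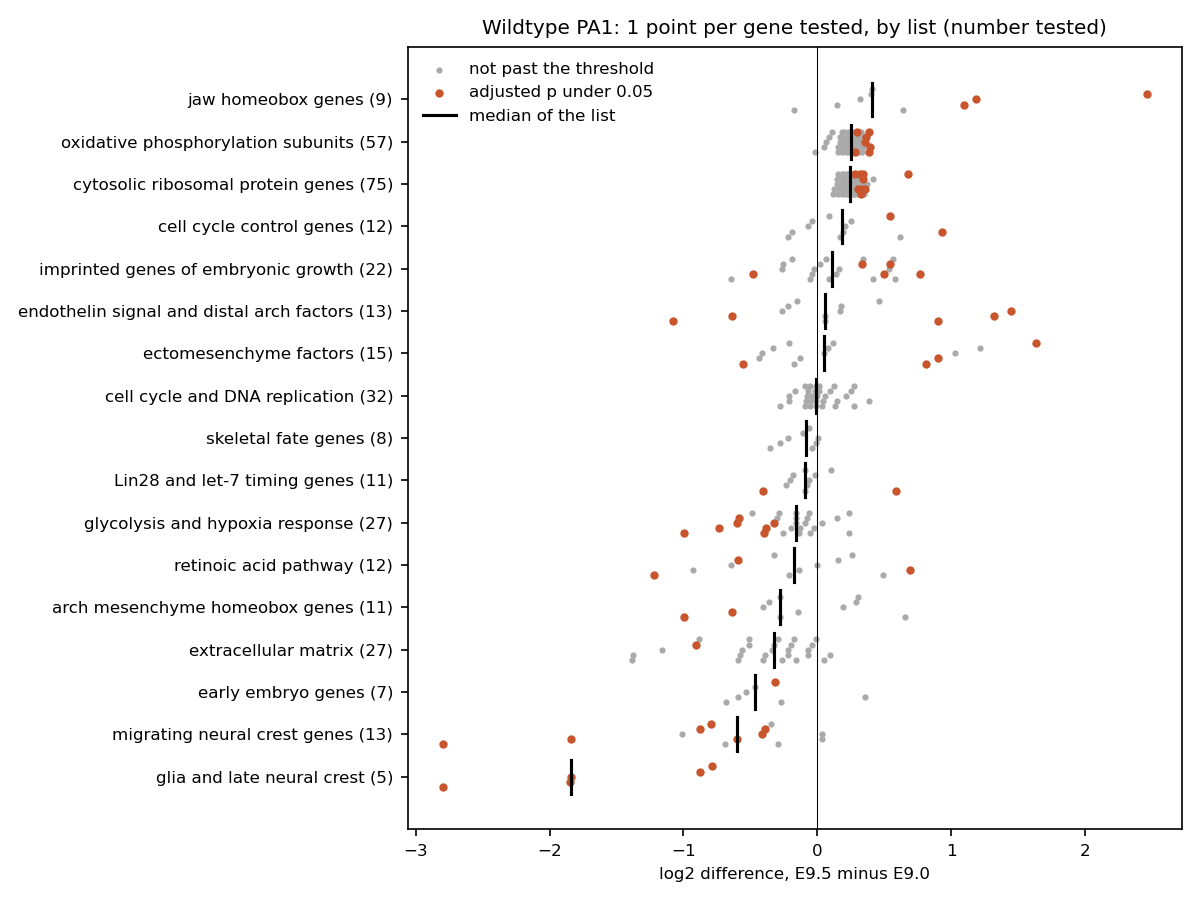
Difference between stages of each tested gene (x axis, log2 of E9.5 over E9.0 on CPM + 1), by gene list (y axis, number tested), with called genes in colour and the list median as a line. The 5 glia and late crest genes are all called and lower, and 3 of 9 jaw homeobox genes are called and higher.

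The same stage comparison in PA1 labelled Hoxa2-/- used other embryos. Hoxa2 is a second arch gene with almost no reads in PA1, so its level in PA1 does not check this label. There, 17 of 15719 genes passed (0.108%), of which 11 were higher (0.07%) and 6 lower (0.0382%). This count was 0 without replicate 1, 2 or 3 of its E9.0 group or replicate 2 or 5 of its E9.5 group, 49 without E9.0 replicate 4, and 31 and 10 without E9.5 replicates 1 and 4. With the Xist-side term it was 0. The spread within its E9.0 group was wide, with Barx1 at 5.78 to 67.6 CPM and Sox10 at 8.07 to 48.3 CPM. Of the 24 genes of the largest wildtype change, the 12 that rose were also higher there and the 12 that fell were lower, and 5 passed: Gpr50, Sox10, Cdh19, Ccl6 and Camk2b. Sox10 was at 22.9 ± 18.7 CPM (n = 4) and 1.071 ± 0.590 CPM (SD, n = 5), and Gpr50 at 4.37 ± 3.66 and 44.2 ± 24.9 CPM. Of 613 wildtype calls tested there, 512 had the same sign (83.5%), against 53.4% of 15509 genes tested in both. The median differences with the label were 0.22 over the genes that rose in wildtype, whose wildtype median was 0.46, and -0.30 over those that fell, whose wildtype median was -0.59. Called in both with the same direction were 10 genes, which are 1.6% of the wildtype calls and 58.8% of the calls with the label.

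A direct test of the difference between the 2 stage changes, over 19 libraries, called 0 of 16558 genes (0%) with limma and 0 with edgeR, while 2551 genes had an unadjusted p under 0.05. Without replicate 4 of the E9.5 group with the label, 1 gene passed. The differences (wildtype minus label) were -0.63 ± 0.77 (SE) for Barx1, 0.45 ± 0.74 for Sox10 and -1.21 ± 0.66 for Gpr50, so differences of this size could not be told from 0.

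**Figure D5:**
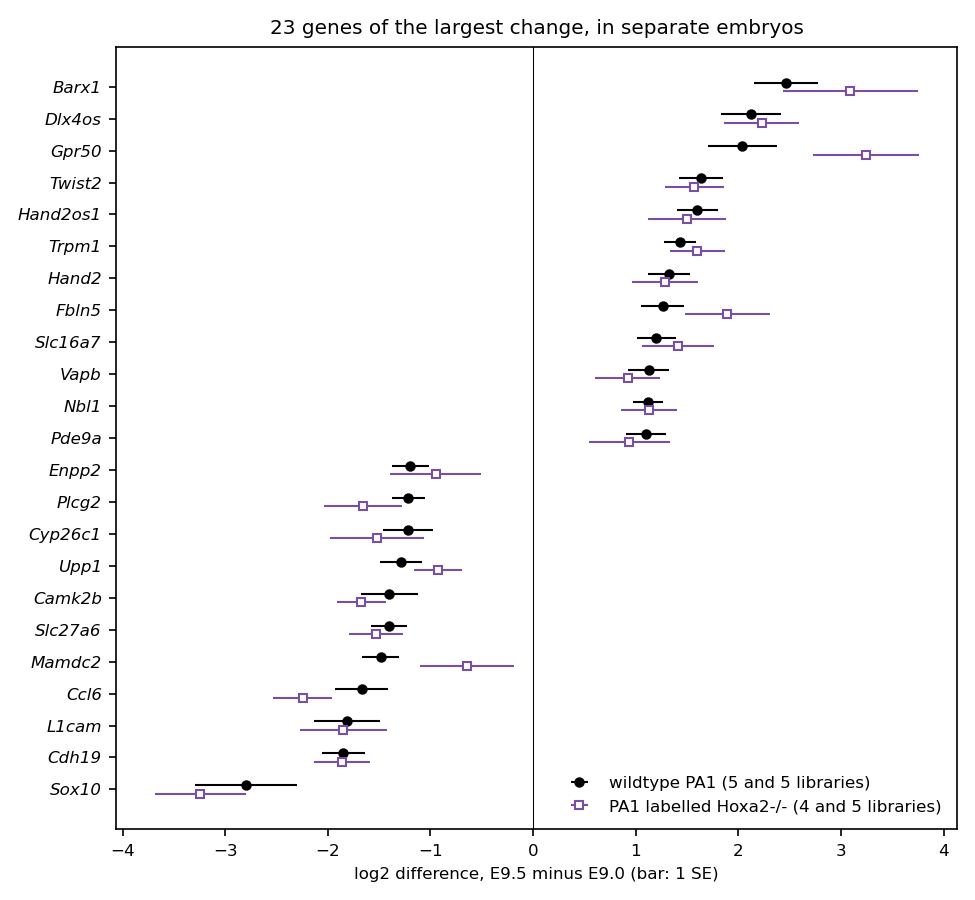
Stage difference (x axis, log2 of E9.5 over E9.0 on CPM + 1, bar 1 SE) of 23 genes with the largest wildtype change (y axis) in wildtype PA1 and in PA1 labelled Hoxa2-/-. All 23 pairs lie on the same side of 0.

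The stage change of wildtype PA1 was also set against that of wildtype PA2, the arch next toward the tail, where 507 of 15986 genes passed on their own (3.17%). The 2 arches of 8 embryos were both measured, so these libraries are not independent. The difference between the stage changes passed for 1038 of 16746 genes (6.2%), 480 more positive in PA1 (2.87%) and 558 more negative (3.33%), and for 2204 with the embryo as a block. Across genes, rho of this difference with transcript length was -0.52, and 113 genes were called after the length and GC correction. The part of length balance in this count was not tested. Without E9.5 PA1 replicates 1 and 3 it was 43. Without single PA1 libraries it was 132, 101, 126, 1049 and 74 (E9.0 replicates 1 to 5) and 67, 2768, 153, 415 and 1670 (E9.5 replicates 1 to 5). Without single PA2 libraries it was 1914, 488, 60 and 101 (E9.0 replicates 1, 2, 4 and 5) and 322, 1699, 166 and 54 (E9.5 replicates 1, 2, 3 and 5). Of the 10 genes named next, Gbx2, Mybpc1, Epha3, Heyl and Tmem132c passed with each of the 18 libraries left out in turn, Hand2os1 in 17 of 18 fits, Rarres1 in 15, L1cam and Arg1 in 9 and Ret in 7. After the length and GC correction Ret, Arg1 and L1cam no longer passed (adjusted p = 0.0503, 0.0615 and 0.0630). Without PA1 E9.5 replicates 1 and 3, Ret, Arg1, L1cam and Epha3 did not pass (adjusted p = 0.119, 0.110, 0.0975 and 0.0584). Without PA1 E9.0 replicates 3 and 4, Ret, Arg1 and Rarres1 did not pass (adjusted p = 0.0659, 0.0543 and 0.0525).

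Gbx2, a homeobox gene of the arch surface and hindbrain border, showed the largest positive difference. In PA1 it was at 1.46, 2.11, 0.974, 1.31 and 1.33 CPM at E9.0 and at 5.67, 6.67, 1.98, 5.69 and 6.30 CPM at E9.5. In PA2 it went the other way, from 12.2 ± 0.922 to 6.95 ± 0.370 CPM (SD, n = 4), and the difference of the log2 changes was 2.03 (SE 0.29, adjusted p = 0.00305). Hand2os1 rose in PA1 as above and was at 15.7 ± 5.07 and 14.6 ± 2.97 CPM in PA2 (difference 1.66, SE 0.33, adjusted p = 0.0213). Arg1, an arginase gene, was at 4.41 and 4.74 CPM in PA1 and at 13.3 and 3.63 CPM in PA2. For Ret, a receptor gene, and Mybpc1, a muscle gene, the difference came from falls in PA2, since their PA1 means were at most 0.739 and 0.194 CPM.

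On the negative side, L1cam fell in PA1 and was at 6.99 ± 2.17 and 9.14 ± 3.62 CPM in PA2 (difference -2.13, SE 0.48, adjusted p = 0.0317). Epha3, a guidance receptor gene, was at 24.5 and 30.3 CPM in PA1, and at 4.97 ± 1.58 and 39.8 ± 20.48 CPM in PA2 (difference -2.34, SE 0.42, adjusted p = 0.0122). Tmem132c was at 56.3 and 54.6 CPM in PA1 and at 21.0 and 71.3 CPM in PA2, the Notch response gene Heyl at 15.2 and 10.47 CPM against 8.88 and 24.02 CPM, and Rarres1 at 1.47 and 0.628 CPM against 3.90 and 11.9 CPM. Among the genes of the largest PA1 change, Cdh19 (difference -1.20, adjusted p = 0.0429), Mamdc2 (-1.44, adjusted p = 0.0213), Plcg2 (-1.21, adjusted p = 0.0325) and Vapb (0.98, adjusted p = 0.0397) also passed the test of the difference between the arches. Of all genes tested, 6.2% passed it. Whether the calls of Cdh19, Mamdc2, Plcg2 and Vapb hold without single libraries or after the length and GC correction was not tested. Barx1 did not pass the test of the difference: its PA2 level was 3.04 ± 0.964 CPM at E9.0 and 52.8 ± 45.2 CPM at E9.5, and the difference was -0.75 with an SE of 0.75.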

How the data were processed

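RNA sequencing was used for the wildtype PA1 libraries of E9.0 and E9.5 and for the 2 comparison sets. Per the submitters' processing notes the tools were bcl2fastq 2.18, TopHat2 2.1.1 and R 3.3.2 with build mm10; the counting program and strandedness are not given in the sources used here. The authors deposited 1 table of signal values for 21948 genes and 68 libraries, on a scale close to CPM, with gene identifiers of which 21921 matched a GENCODE M21 symbol. Every deposited value was a whole multiple of 1 read within 0.01 reads (100% of values), so whole reads were recovered. Reads were PCR amplified with no molecular identifiers described, so floors cover counting error only.

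Genes with at least 1 CPM in at least 5 libraries of a fit were tested on log2(CPM + 1) with limma 3.58.1 (R 4.3.3; trended prior, two-sided, Benjamini-Hochberg over all genes kept, threshold 0.05). Each fit held only the groups it compares. Log2 differences understate the change of genes near 1 CPM. This test was planned for CPM and was used unchanged on these signal values. The quasi-likelihood test of edgeR 4.0.16 on recovered reads was an alternative. On simulated reads for the wildtype comparison with 200 changed genes among 15830 genes, 90% of 2-fold and 100% of 4-fold changes were recovered, with 9 false calls. For the differences between labels and between arches, 76% and 70% of 2-fold changes were recovered. Reads were drawn independently for each gene, with changed genes at 5 CPM or more and no length balance, admixed tissue or sex imbalance. The simulation therefore does not show how the test behaves on libraries that share such effects.

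Genes were named by rule: the 12 largest log2 differences in each direction among called genes without overlap, with a symbol other than a Gm number or Rik name and a mean of at least 5 CPM at either stage; the 4 largest CPM differences in each direction; members of 41 gene lists; and up to 5 in each direction for each difference test. The members and lists were chosen with earlier results of these data known, so the lists are described by counts and medians and no list was tested. Zeb2, Pdgfc, Nr6a1 and Has2 were chosen after their values were seen. Counts cover all genes that meet a rule, and a few of these genes are not reported here by name.

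PA1 and PA2 libraries with the same number come from 1 embryo per the series text. Their deviations from the group means had a median correlation of 0.36 over 8 pairs, of which 6 were over 0.1, against -0.08 over 32 pairs of different embryos. E9.0 and E9.5 libraries come from different embryos. No 2 replicates were copies, with a chi-square per degree of freedom of at least 7.37. Nothing further is stated on how embryos were sampled (litters), so p-values measure the spread between these libraries.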

Additional observations from a re-analysis of the deposited data

Results flagged for a closer look

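In 196 groups of 5 values checked, 18 held a library far from the other 4, and chance alone flags about 1 in 20 groups. At E9.5, replicate 3 was high in Sox10 (12.7 CPM against 0.520 to 2.85) and the summed macrophage markers (10.46 against 2.183 to 4.41), and low in Gbx2 (1.98 CPM against 5.67 to 6.67). E9.0 replicate 4 was low in L1cam (3.93 CPM against 12.8 to 14.5), Prtg (390 against 464 to 487) and Ets1 (93.7 against 118 to 127), and high in Tek (112 against 59.5 to 68.5), Foxf1 (13.04 against 4.31 to 6.32) and Msx1 (127 against 81.2 to 86.4). E9.5 replicate 5 was high in Lhx8 (35.0 CPM against 9.14 to 12.9), Rarb (6.35 against 4.94 to 5.08) and Gnas (22.8 against 9.91 to 13.4). Single cases were Eya2 in E9.5 replicate 1 (14.8 CPM against 23.0 to 25.4), Dnmt3b in E9.5 replicate 2 (96.4 against 82.0 to 86.2), Gnas in E9.0 replicate 3 (5.74 against 7.45 to 8.15), the summed PA1 ectomesenchyme markers in E9.0 replicate 2 (807 against 722 to 740), the summed second arch Hox genes in E9.5 replicate 4 (1.92 against 0.582 to 0.970) and the summed sex-linked genes in E9.0 replicate 3 (96.3 against 172 to 188), the 1 library on the Xist side at that stage.

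The stage change differed between PA1 and PA2, by the test of the difference itself, in 10 genes named by rule. In log2, PA1 minus PA2, these were Gbx2 at 2.03, Mybpc1 at 1.86, Hand2os1 at 1.66, Ret at 1.63 and Arg1 at 1.58, and Epha3 at -2.34, L1cam at -2.13, Rarres1 at -1.92, Heyl at -1.90 and Tmem132c at -1.79.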

How the results depend on the processing

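The wildtype PA1 count of 625 was 383 with no filter, 1245 with the spread pooled over all 68 libraries, 1493 with library quality weights and 364 with the replicate block. The replicate number pairs different embryos here: same-numbered libraries had a median correlation of deviations of 0.02 over 5 pairs, of which 2 exceeded 0.1. Alternatives added after seeing the data gave 31 (Xist-side term), 230 (without E9.5 libraries 1 and 3) and 64 (without E9.0 libraries 3 and 4). Leaving out 1 replicate gave 143 to 2145. The pseudocounts 0.25 and 5, the 5 CPM filter, scaling by median ratios, edgeR and the length and GC correction gave 549 to 696. The count for the label of 17 was 8 with the 5 CPM filter, 532 with all 68 libraries, 111 with weights, 28 with the replicate block and 0 with the Xist-side term, and 0 to 49 without 1 replicate. The difference between labels stayed at 0 in every setting but the leave-outs, with 0 to 1. The difference between arches of 1038 was 658 with no filter, 1924 with all 68, 2908 with weights, 2204 with the embryo as replicate block, 113 with the length and GC correction, 43 without PA1 E9.5 libraries 1 and 3, 125 without PA1 E9.0 libraries 3 and 4, and 54 to 2768 without 1 replicate. Of 80 called genes among the 87 with a table of leave-outs, all 80 kept their direction in all 10 leave-outs and 39 kept their call. With the Xist-side term 14 of the 80 were called, without E9.0 replicates 3 and 4 together 21, and without E9.5 replicates 1 and 3 together 52. The length and GC correction left 72, edgeR 74 and the replicate block 66. The causes were not tested. At 0.147 to 0.240 CPM for 3 reads, genes under about 1 CPM were not tested.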
